A study of Mus musculus with 64 samples.

Results

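Expression of Nfe2l2, which encodes the transcription factor Nrf2, and of 9 genes known as its targets was followed in 8 mouse pancreatic tumor lines grown alone or with fibroblasts. The members were taken by symbol from the deposited count table: Nfe2l2, Nqo1, Hmox1, Gclc, Gclm, Txnrd1, Srxn1, Gsr, Gsta4 and Osgin1, 10 of the 39017 genes listed there. All 10 were found, and all 10 passed the filter on low counts in every test, Nqo1 with few reads in 3 of the lines.

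The lines were KPC1 and 7 clones named H, E, V, N, K, T and M. The study's methods trace the clones to tumors of KPC mice, and its results to a single such tumor. Tests below that take the line as the replicate therefore measure agreement among related lines, not among tumors. In KPC mice, Cre recombinase under the Pdx1 promoter switches on the tumor alleles, a mutant Trp53 among them, in the pancreas, and the labels give a C57BL/6 mixed background for every line. Every line was sequenced 4 times alone and 4 times after coculture, in which tumor cells grew in direct contact with fibroblasts for 48 h and were then sorted by the GFP that the tumor cells carry, 64 libraries of polyadenylated RNA in all. The study placed E, H and V in group 1 and K, M, N and T in group 2, and KPC1 in neither. Sorting is not stated for the mono-cultures, nor is it stated that the 4 libraries of a line came from separate cultures, so p-values over libraries measure the spread between these libraries, which may be technical.

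The libraries held 11178721 to 21333683 counts (median 15648010), and 3 counts in any of them came to at most 0.268 CPM, counts scaled to library size after TMM normalization. Keratins and other epithelial markers of pancreatic tumors, 8 genes summed, ranged over the mono-culture means of the lines from 2235 to 3595 CPM and over the coculture means from 1670.0 to 3128 CPM. Of 20 fibroblast markers, 18 were tested, and 13 rose and 1 fell in coculture. Dcn, Fap, Postn and Thy1 summed to at most 0.0743 CPM in the mono-culture mean of any line, with Thy1 at 0 in every mono-culture, and to between 56.7 and 97.4 CPM in coculture. These 4 are a choice among the 20, made by no stated rule. Others of the 13 reached more, Col1a1 going from 10.5 to 277 CPM and Col1a2 from 0.215 to 193 CPM in the median line. The 1 that fell was Twist2. The sum of all 20 markers ranged from 1710.2 to 11324 CPM without fibroblasts and from 3308 to 10437 CPM with them, most of it Fn1, which alone ran from 954 to 9784 CPM over the mono-culture means. The part that fibroblast RNA had in the coculture values below was not tested. In such bulk libraries, fewer cells of a type and less RNA per cell cannot be told apart.

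Nrf2 is held in the cytoplasm by Keap1, an adaptor that hands it to a ubiquitin ligase built on Cul3 and Rbx1. When oxidants or electrophiles modify Keap1, Nrf2 escapes degradation, pairs with a small Maf protein in the nucleus and binds the antioxidant response element, a site for which Bach1 competes as a repressor. Its targets make glutathione, recycle glutathione and thioredoxin, detoxify quinones and lipid aldehydes and break down heme, and the pathway is known to be active in many pancreatic cancers. Because Nrf2 is controlled mainly at the level of its protein, the mRNA of Nfe2l2 is a poor guide to its activity.

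RefSeq promoter windows, 250 bases before to 50 bases after a start site, were at hand for 6 of the 10 members, in 8 windows on GRCm38.p6. The core of the antioxidant response element was searched as TGACNNNGC on both strands and was present in 4 of the 8 windows, belonging to Nfe2l2, Srxn1, Gclm and Txnrd1, against 12.4% of the 32851 windows in the table. A second spelling, TGAGNNNGC, was added after the windows had been read. It was found in the windows of Srxn1 and Osgin1 and in 17.6% of all windows. Either spelling was present in 5 of the 8 windows, belonging to 5 of the 6 members, against 27.8% of all windows. A match is a run of letters, not a shown binding site. The following windows, written 5′ to 3′ on the strand of the gene with matches in capitals, are shown for Srxn1, which held the most matches, for Gclm and Txnrd1, the glutathione and thioredoxin genes with a match, and for Nqo1, which varied most between the lines and had none.
Srxn1, chr2:152105274-152105573, plus strand: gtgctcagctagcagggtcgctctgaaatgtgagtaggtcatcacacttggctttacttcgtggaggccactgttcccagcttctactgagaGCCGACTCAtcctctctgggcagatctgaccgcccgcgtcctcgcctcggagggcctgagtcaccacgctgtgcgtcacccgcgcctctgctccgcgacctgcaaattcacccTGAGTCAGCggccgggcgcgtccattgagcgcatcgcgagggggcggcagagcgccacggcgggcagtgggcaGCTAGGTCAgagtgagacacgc
Gclm, chr3:122245307-122245606, plus strand: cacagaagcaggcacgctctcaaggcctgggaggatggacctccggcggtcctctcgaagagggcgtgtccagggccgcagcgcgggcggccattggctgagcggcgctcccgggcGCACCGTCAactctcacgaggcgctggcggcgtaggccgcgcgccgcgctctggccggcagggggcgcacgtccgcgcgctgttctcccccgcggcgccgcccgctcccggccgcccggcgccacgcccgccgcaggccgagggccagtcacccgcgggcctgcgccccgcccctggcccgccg
Txnrd1, chr10:82858956-82859255, plus strand: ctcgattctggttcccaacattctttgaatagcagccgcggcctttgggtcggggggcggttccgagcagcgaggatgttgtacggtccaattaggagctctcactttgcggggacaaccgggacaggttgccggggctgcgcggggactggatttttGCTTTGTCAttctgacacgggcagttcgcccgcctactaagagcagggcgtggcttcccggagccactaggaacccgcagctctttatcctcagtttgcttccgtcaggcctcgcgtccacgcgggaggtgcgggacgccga
Nqo1, chr8:107403156-107403455, minus strand: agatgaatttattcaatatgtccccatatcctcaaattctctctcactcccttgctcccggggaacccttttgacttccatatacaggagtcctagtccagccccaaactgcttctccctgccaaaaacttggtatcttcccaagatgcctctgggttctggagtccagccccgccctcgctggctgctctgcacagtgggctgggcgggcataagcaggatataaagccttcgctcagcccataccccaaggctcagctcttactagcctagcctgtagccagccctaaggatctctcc
In the Srxn1 window, the first capitals read TGAGTCGGC and the last TGACCTAGC on the opposite strand, and the middle match, TGAGTCAGC, begins 45 bases before the start site and overlaps TGANTCA, the AP-1 site, which 7.81% of all windows held. The matches in Gclm and Txnrd1 lie on the opposite strand as well, 134 and 92 bases before the start site. The 2 other Txnrd1 windows held no match to either spelling. The only match in the Osgin1 window, which is not printed, reads TGAGTCAGC on the opposite strand and also overlaps TGANTCA.

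Levels of different genes were compared per kilobase in the RPKM values that the authors computed. In mono-culture, the median over the 8 lines was highest for Gsta4 (145 RPKM), a glutathione S-transferase that conjugates the lipid aldehyde 4-hydroxynonenal, followed by Txnrd1 (57.6 RPKM), Gsr (45.4 RPKM) and Nfe2l2 (42.2 RPKM). Gclc (27.3 RPKM), Srxn1 (26.5 RPKM) and Hmox1 (18.8 RPKM) stood in the middle. Gclm (13.9 RPKM), Osgin1 (12.7 RPKM) and Nqo1 (3.25 RPKM) were lowest. In coculture, the median of Txnrd1 was the highest at 81.3 RPKM, with Gsta4 at 64.1 RPKM, and Hmox1 stood in the fourth place, after the seventh in mono-culture, at 33.9 RPKM. Ranges of the lines overlapped for many neighbors in this order, as the plot of RPKM by gene shows.

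**Figure D1:**
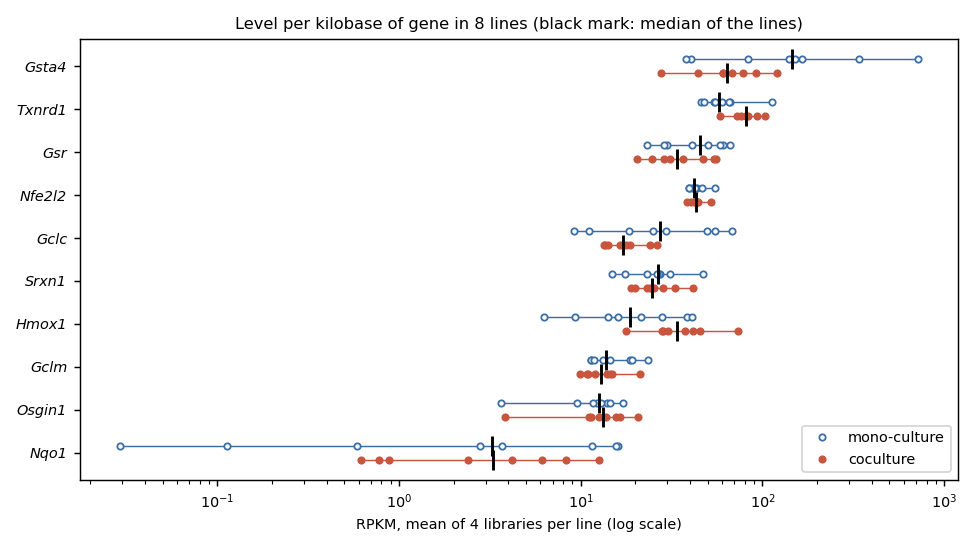
RPKM of the 10 genes on a log axis, each point the mean of 4 libraries of 1 line, in mono-culture (open blue) and coculture (filled red), with a black mark at the median of the 8 lines. Nqo1 spans the widest range of the lines in mono-culture and Nfe2l2 the narrowest.

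All 10 genes differed among the lines in mono-culture by edgeR's quasi-likelihood F test (adjusted p between 1.24e-17 for Gclc and 1.52e-05 for Nfe2l2), but so did 96.9% of the 13624 genes tested. The ratio of the highest to the lowest line mean was 156 for Nqo1, 18.8 for Gsta4, 7.4 for Gclc, 6.1 for Hmox1, 4.44 for Osgin1, 2.91 for Srxn1, 2.56 for Txnrd1, 2.56 for Gsr, 2.0 for Gclm and 1.4 for Nfe2l2. For each gene, the 8 lines form 28 pairs, and the ranges of the 4 libraries did not overlap in 176 of the 280 pairs over the 10 genes, against 48.2% of such pairs over all genes tested. Nqo1 and Gclc were each separate in 23 of 28 pairs, and Nfe2l2 and Osgin1 in 12. The plot of all 64 libraries shows these levels.

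**Figure D2:**
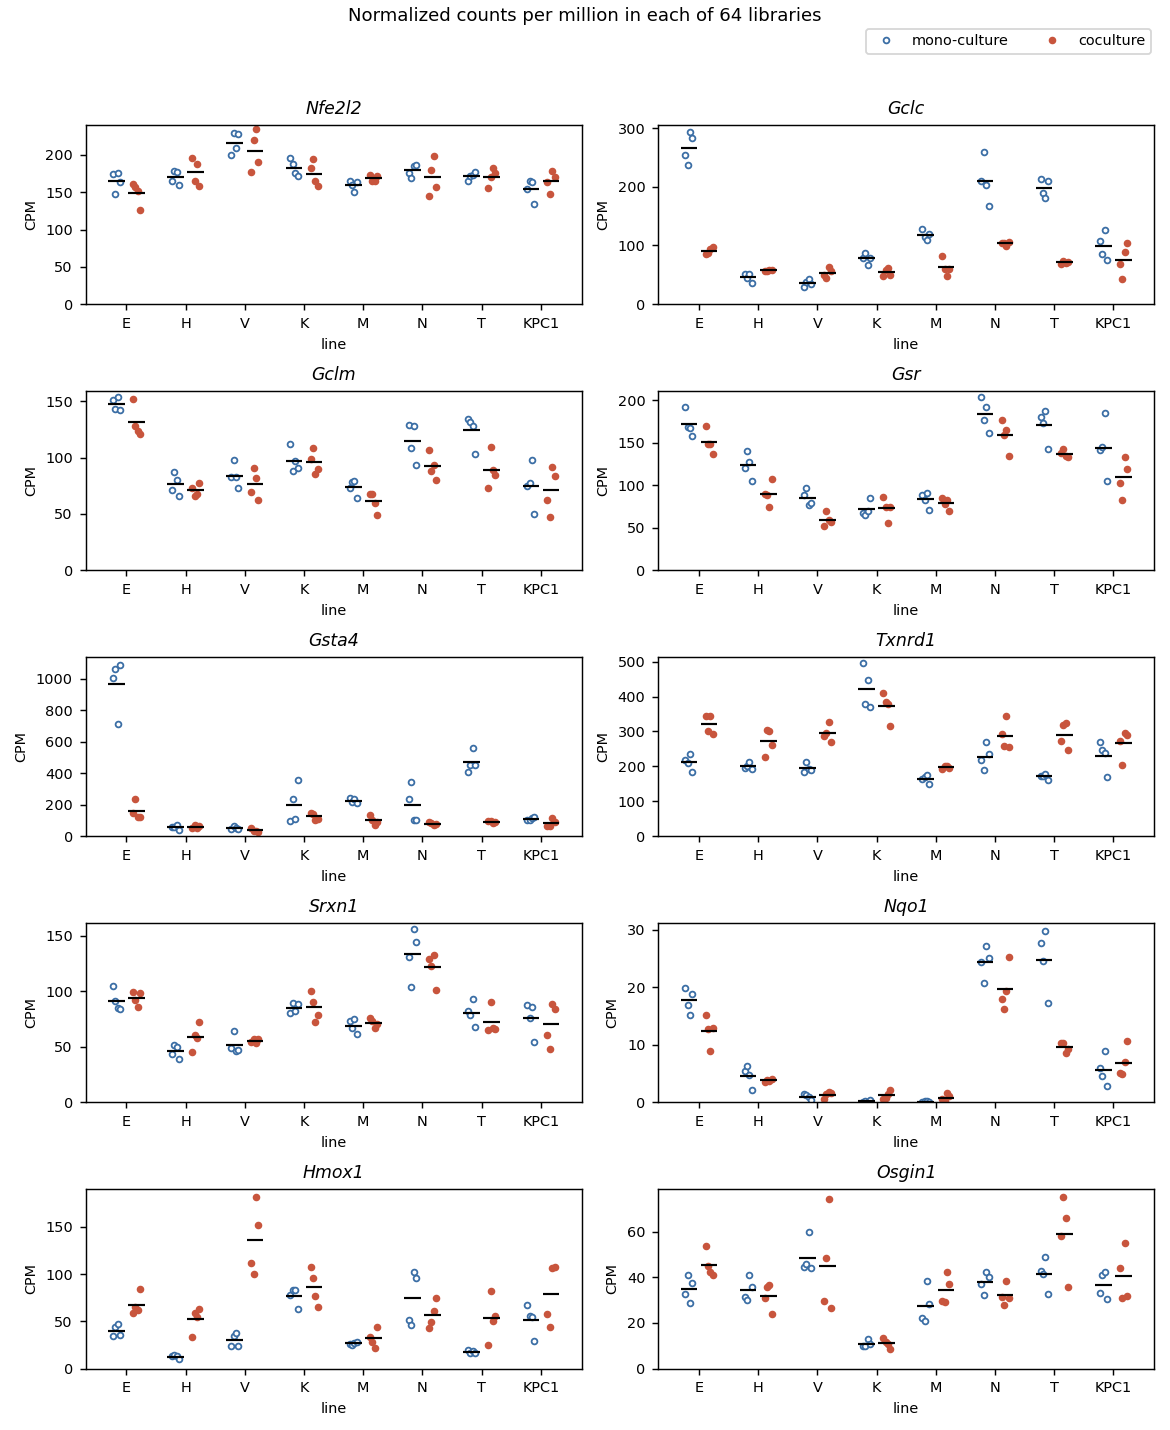
CPM of each of the 10 genes in each library on linear axes that start at 0, by line, in mono-culture (open blue) and coculture (filled red), with a black bar at the mean of 4 libraries. Gclc and Gsta4 lie closer together over the lines in coculture, and all Nfe2l2 libraries lie between 126 and 235 CPM.

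Nfe2l2 (chromosome 2, 75675513 to 75704641, minus strand; this and the spans below are whole protein-coding genes in GENCODE M21 on GRCm38), the gene of Nrf2 itself, varied least over the lines. Clone V held the most in mono-culture, with 199, 229, 209 and 228 CPM in its 4 libraries, above every library of the other lines. In the other 7 lines, the mono-culture means lay between 154 ± 14.2 CPM in KPC1 and 183 ± 10.9 CPM in K, with each neighbor in that order overlapping the next. Over the 8 lines, the response to coculture was a log2 change of -0.02 (SE 0.05, adjusted p 0.783), and no line passed the test, with log2 changes between -0.15 and 0.10. The test of different responses among the lines gave an adjusted p of 0.478. The change in E (log2 -0.15, SE 0.09, adjusted p 0.146) had an adjusted p of 0.0998 under RLE normalization and of 0.0483 without replicate 2, both past the threshold of 0.1.

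Over the 8 lines taken as replicates, 2 of the 10 genes rose in coculture and 4 fell. Hmox1 rose by 0.91 on the log2 scale (SE 0.30, adjusted p 0.0303) and Txnrd1 by 0.38 on the log2 scale (SE 0.10, adjusted p 0.0102), while Gsta4 (-1.09, SE 0.30, adjusted p 0.0146), Gclc (-0.62, SE 0.24, adjusted p 0.0583), Gsr (-0.26, SE 0.07, adjusted p 0.0112) and Gclm (-0.19, SE 0.06, adjusted p 0.0272) fell. Nqo1 (0.19, SE 0.39, adjusted p 0.701), Srxn1 (0.03, SE 0.06, adjusted p 0.748), Osgin1 (0.12, SE 0.10, adjusted p 0.317) and Nfe2l2 did not pass. Among all 14478 genes tested, 27.2% were called higher and 27.4% lower, so the share of members called is near the background, and the median log2 change of the 10 was 0.00 beside 0.00 for all genes. These values come from edgeR's quasi-likelihood test of the counts of each line and culture, summed over 4 libraries, with the line as a covariate. The Gclc call was lost without E, M, N or T, where its log2 change was between -0.58 and -0.49 and its adjusted p between 0.110 and 0.140.

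Gclc (chromosome 9, 77754535 to 77794485, plus strand) encodes the catalytic subunit of glutamate-cysteine ligase, which carries out the rate-limiting step of glutathione synthesis. Of the 10 genes, it had the smallest adjusted p in the test of different responses among the lines, and it fell in 6 and rose in 2. In E, the 4 mono-culture libraries held 254, 238, 293 and 283 CPM and the 4 coculture libraries 85.7, 87.3, 93.9 and 97.8 CPM. T went from 213, 189.8, 180.4 and 209 CPM to 69.1, 73.1, 69.7 and 72.2 CPM, and the 2 sets of libraries were far apart in both lines. The changes in E (log2 -1.55, SE 0.16, adjusted p 1.60e-11) and T (log2 -1.48, SE 0.16, adjusted p 3.89e-11) were alike in size. In N, the libraries held 210.2, 259, 203 and 168 CPM in mono-culture and 104, 104, 99.6 and 106 CPM in coculture. Those of M held 128, 114, 109 and 119.8 CPM and then 82.6, 59.5, 47.8 and 59.6 CPM. The falls in N (log2 -1.02, SE 0.15, adjusted p 1.42e-06) and M (log2 -0.91, SE 0.16, adjusted p 9.97e-06) left no overlap between the cultures either. K fell from 79, 87.3, 66.8 and 79.3 CPM to 48.2, 58, 62.2 and 49.3 CPM (log2 -0.52, SE 0.16, adjusted p 0.0146), again without overlap. KPC1 fell from 108, 86.2, 126 and 75 CPM to 68.4, 43.3, 88.4 and 104 CPM (log2 -0.37, SE 0.15, adjusted p 0.0579), with overlapping libraries.

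Clones V and H started lowest and went the other way. V rose in Gclc from 29.7, 37.3, 42.5 and 34.7 CPM to 50.4, 44.5, 62.9 and 55.9 CPM (log2 0.57, SE 0.16, adjusted p 0.00200). H rose from 51.9, 44, 51.3 and 36.3 CPM to 56.5, 57.2, 57.4 and 58.6 CPM (log2 0.32, SE 0.16, adjusted p 0.0985). All 4 coculture libraries lay above all 4 mono-culture libraries in both clones, but the call in H was lost without a filter on low counts (adjusted p 0.110), by DESeq2 (adjusted p 0.101) and without replicate 2, 3 or 4. That in KPC1 was lost without replicate 1, 2 or 3 and that in K without replicate 1. In KPC1, coculture replicate 2 was the lowest of its 4 libraries for all 10 genes, and without replicate number 2 of both cultures the log2 change of Gclc was -0.24 (adjusted p 0.311). The responses differed among the lines (adjusted p 3.22e-12), as they did for 71.3% of all genes tested. The line means of Gclc spread over a ratio of 7.4 in mono-culture and of 1.94 in coculture. The plot of line means in both cultures shows this narrower range.

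**Figure D3:**
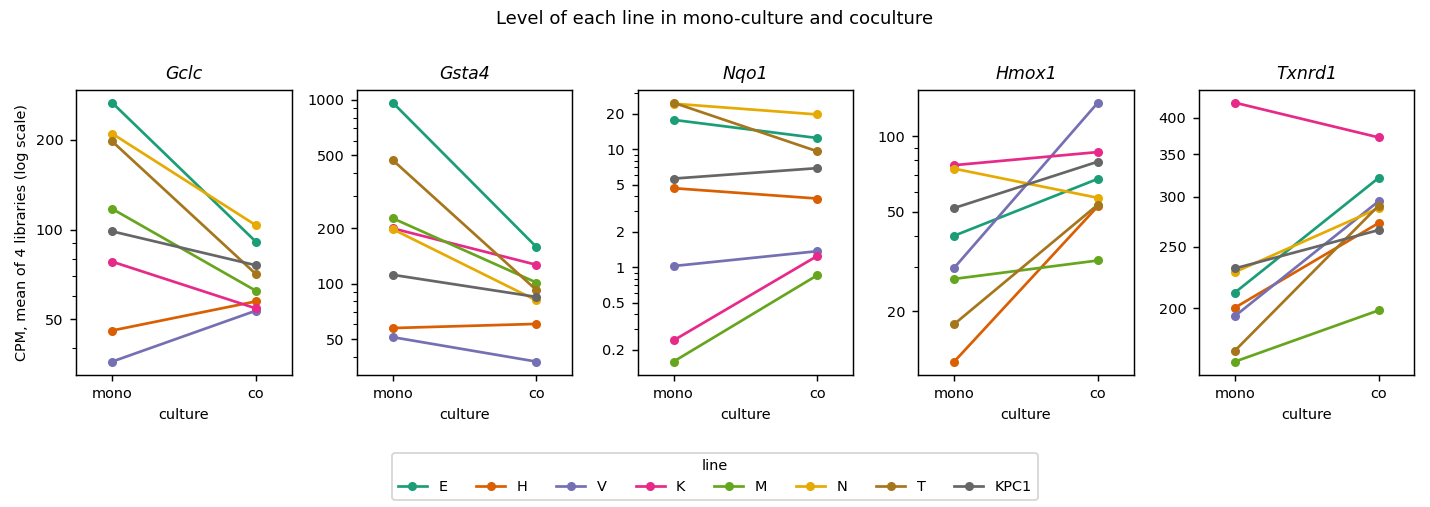
Mean CPM of 4 libraries on log axes for Gclc, Gsta4, Nqo1, Hmox1 and Txnrd1, with a line from mono-culture to coculture for each of the 8 tumor lines. The lines of Gclc run together from a range of 36.1 to 267 CPM into one of 53.4 to 104 CPM, and those of Gsta4 from 51.2 to 963 CPM into 37.7 to 158 CPM.

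Gclm (chromosome 3, 122245557 to 122270732, plus strand) encodes the modifier subunit of the same ligase and moved much less than its partner. Its log2 change was below 0 in all 8 lines, between -0.48 and -0.02, and only T passed the test within a line (log2 -0.48, SE 0.15, adjusted p 0.00511). The T libraries held 135, 131, 128 and 103 CPM in mono-culture and 72.7, 109, 89.1 and 84.6 CPM in coculture, with 1 coculture library inside the mono-culture range. E held the most Gclm in mono-culture, 151, 143, 154 and 142 CPM, above the range of T, the next line. No difference in response among the lines was called (adjusted p 0.483). Gclm overlaps the annotated genes Gm6061 on its own strand and Gm17494 on the other, and the strand setting of the counting is not given in the sources used here.

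Gsr (chromosome 8, 33652523 to 33698163, plus strand), glutathione reductase, restores reduced glutathione with NADPH. It fell in V (log2 -0.52, SE 0.13, adjusted p 8.19e-04), H (log2 -0.45, SE 0.13, adjusted p 0.00531), KPC1 (log2 -0.40, SE 0.13, adjusted p 0.0167) and T (log2 -0.32, SE 0.13, adjusted p 0.0336), and rose in no line. In V, the libraries held 88.1, 97.1, 76.8 and 79.7 CPM in mono-culture and 52.4, 70.0, 59.5 and 56.6 CPM in coculture, and in T 180.0, 173, 188 and 143 CPM and 138, 143, 135 and 134 CPM, without overlap in either, by less than 1 CPM in T. The call in T was lost without replicate 1 or 3 and that in KPC1 without replicate 2. The difference in response among the lines passed narrowly (adjusted p 0.0933) and was lost without replicate 1, 2 or 3, without the filter, at a threshold of 0.05 and with the sample sheet as a covariate, while it was kept without replicate 4. In mono-culture, Gsr was highest in N (183 ± 18.4 CPM) and lowest in K (71.7 ± 9.0 CPM).

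Gsta4 (chromosome 9, 78182774 to 78209349, plus strand) lies 388 kb from Gclc. In mono-culture it was highest in E, with 1000.5, 1057, 710.3 and 1085 CPM, then in T, with 410.1, 454, 562 and 449 CPM, and each of these was separate from the next line. It was lowest in V, with 45.8, 62.7, 50.9 and 45.2 CPM. In coculture it fell to 149.9, 239, 122 and 122 CPM in E (log2 -2.61, SE 0.28, adjusted p 1.01e-10) and to 96, 98.1, 86.4 and 88.6 CPM in T (log2 -2.34, SE 0.28, adjusted p 9.75e-10). These were the largest falls of any member in any line. N fell from 235, 346, 106 and 103 CPM to 90.3, 82, 74.4 and 77.5 CPM (log2 -1.29, SE 0.27, adjusted p 3.00e-04). M fell from 239.9, 214, 238 and 214 CPM to 137, 104, 73.7 and 90.4 CPM (log2 -1.16, SE 0.27, adjusted p 8.70e-04). In E, T, N and M all coculture libraries lay below all mono-culture libraries. The 4 mono-culture libraries of K split into 99.3, 235, 109 and 356 CPM around the coculture values of 147, 141, 106 and 112 CPM, and the fall (log2 -0.66, SE 0.27, adjusted p 0.0924) was lost without replicate 2 or 4 (log2 -0.17 without replicate 4), with the sheet as a covariate (adjusted p 0.130) and without the filter (adjusted p 0.1004). V, H and KPC1 did not pass, and the responses differed among the lines (adjusted p 8.10e-08).

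Over the 8 lines, the changes of Gclc and Gsta4 ran together, with Pearson's r = 0.901 and Spearman's rho = 0.929, and r = 0.988 over 6 lines without the 2 whose Gclc change lay farthest from the median. Both changes share the libraries of a line, and r is a description. Their mono-culture levels gave r = 0.901 and their coculture levels r = 0.416. Of the 45 pairs of members, 1 had an r over 0.7 in response, against 6.07% of all pairs of genes tested.

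**Figure D4:**
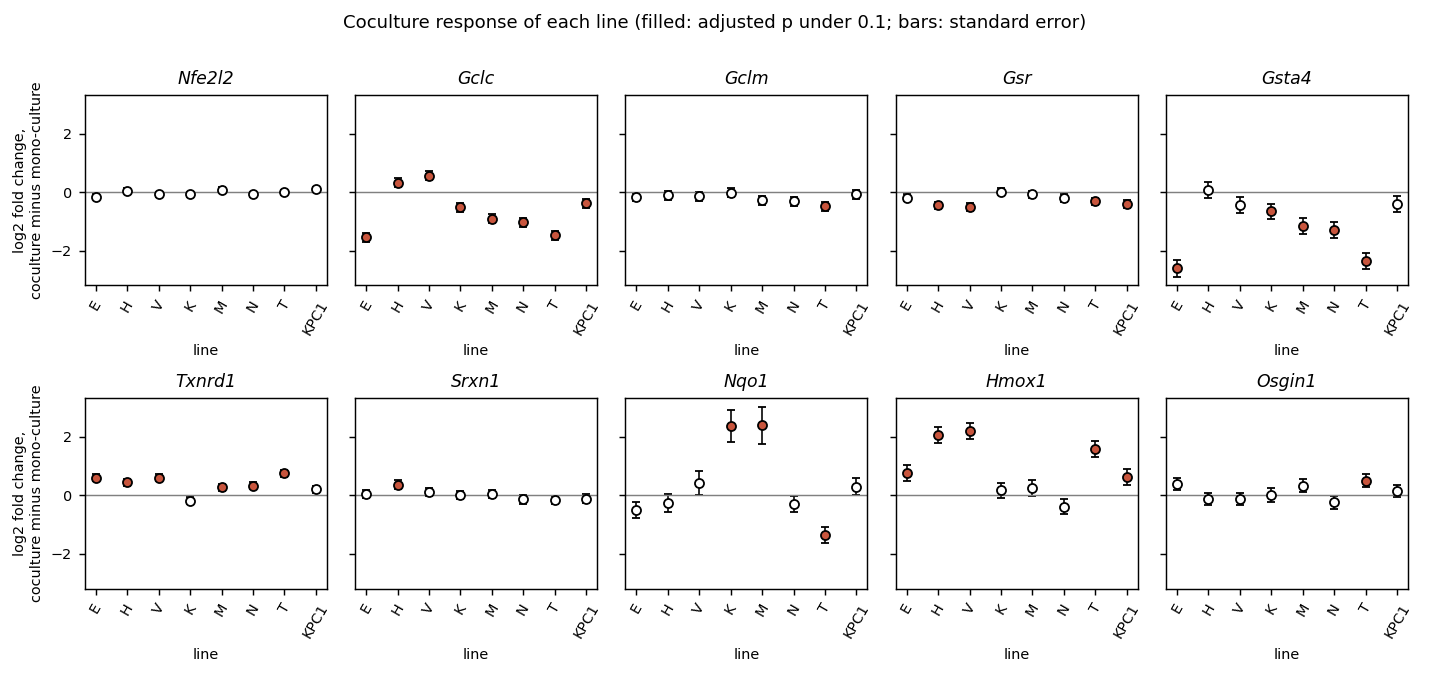
Log2 fold change of coculture over mono-culture in each of the 8 lines for the 10 genes, with the standard error as bars, filled where the adjusted p was under 0.1. Gclc lies below 0 in 6 lines and above 0 in H and V, Hmox1 is filled in E, H, V, T and KPC1, and no point of Nfe2l2 is filled.

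Txnrd1 (chromosome 10, 82833951 to 82897712, plus strand) encodes cytosolic thioredoxin reductase, the selenoenzyme that keeps thioredoxin reduced. It rose in 6 of the 8 lines. In T, the mono-culture libraries held 174, 173, 179.6 and 159.8 CPM and the coculture libraries 274, 318, 323 and 247 CPM (log2 0.76, SE 0.12, adjusted p 3.44e-07). V rose from 184, 212, 192 and 189.9 CPM to 286, 297, 328 and 269.9 CPM (log2 0.60, SE 0.12, adjusted p 2.58e-05). E rose from 218, 211, 235 and 183 CPM to 346, 301, 345 and 293 CPM (log2 0.60, SE 0.12, adjusted p 2.62e-05). Every coculture library lay above every mono-culture library in these 3 clones and in H (log2 0.44, SE 0.12, adjusted p 0.00255) and M (log2 0.27, SE 0.12, adjusted p 0.0764). N also rose (log2 0.34, SE 0.12, adjusted p 0.0267), with overlap. The call in M was lost at a threshold of 0.05, without the filter and without any 1 of the 4 replicate numbers, and that in N without replicate 1 or 2. K, which held the most in mono-culture (496, 378, 446 and 369 CPM), had 411, 383, 379.8 and 316 CPM in coculture and did not pass (log2 -0.18, SE 0.12, adjusted p 0.332), and neither did KPC1 (log2 0.20, SE 0.12, adjusted p 0.192), which passed without replicate 2 (adjusted p 0.0689). The responses differed among the lines (adjusted p 1.03e-04). Txnrd1 overlaps Eid3 on its own strand and Gm38560 and Gm47073 on the other.

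Srxn1 (chromosome 2, 152105516 to 152111376, plus strand) encodes sulfiredoxin, which repairs overoxidized peroxiredoxins. With 3 matches in the window printed above, it had the smallest response over the 8 lines after Nfe2l2. Within lines it passed only in H, from 43.5, 51.6, 49.8 and 39 CPM to 45.2, 60.8, 58.1 and 72.2 CPM (log2 0.36, SE 0.15, adjusted p 0.0453), with overlap, and that call was lost without replicate 4. N held the most in mono-culture, 131, 104, 156 and 144 CPM, and H the least. In coculture, the line means ran from 55.6 ± 2.18 CPM in V to 122 ± 14.1 CPM in N. No difference in response among the lines was called (adjusted p 0.297).

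Nqo1 (chromosome 8, 107388225 to 107403206, minus strand), the quinone reductase often read as the marker of Nrf2 activity, differed most between the lines. T held 27.6, 24.6, 29.7 and 17.2 CPM in mono-culture, N 24.3, 20.7, 27.1 and 25.1 CPM and E 19.8, 16.9, 15.3 and 18.8 CPM. KPC1 and H stood lower, with 6.0, 4.67, 9.0 and 2.86 CPM and 5.48, 6.25, 4.76 and 2.2 CPM. V, K and M were near the limit of detection, K with 1 to 7 reads and M with 1 to 4 reads in a library, or 0.130, 0.276, 0.0671 and 0.487 CPM and 0.0589, 0.257, 0.197 and 0.122 CPM. The spread of Nqo1 over the lines was above that of 99.1% of the 14478 genes tested. In coculture, T fell to 10.3, 10.2, 8.56 and 9.3 CPM (log2 -1.37, SE 0.28, adjusted p 4.24e-05), without overlap. K rose to 0.666, 0.696, 1.51 and 2.11 CPM (log2 2.37, SE 0.55, adjusted p 0.00124) and M to 0.552, 0.234, 1.58 and 1.05 CPM (log2 2.40, SE 0.63, adjusted p 0.00266). From 14 reads in all 4 mono-culture libraries of K and 77 in the 4 from coculture, the ratio per total count was 5.58 (exact 95% binomial interval 3.13 to 10.7). For M, 10 and 47 reads gave 5.68 (2.83 to 12.6), and both intervals cover counting error only. Beside these low levels, Dcn, Fap, Postn and Thy1 summed to 26.3, 32.1, 155 and 150.0 CPM in the coculture libraries of K and to 28.8, 55.3, 115 and 89.1 CPM in those of M, in the same order of replicates, and the part of fibroblast RNA in these 2 rises was not tested. The other 5 lines did not pass, except that E did under RLE normalization (log2 -0.53, adjusted p 0.0988), and the responses differed among the lines (adjusted p 2.53e-06).

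Across the lines in mono-culture, Nqo1 and Gsr ranked alike, with r = 0.980 and rho = 0.905 over 8 lines, r = 0.973 over the 6 lines nearest the Nqo1 median, and r = 0.947 in coculture. Over the 45 pairs of members, 6 had an r over 0.7 in mono-culture, 13.3% beside 5.5% of all pairs of genes tested. Each r is a description over lines that may share 1 origin, with no test.

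Hmox1 (chromosome 8, 75093621 to 75100589, plus strand) encodes heme oxygenase 1, which opens the heme ring and releases iron, carbon monoxide and biliverdin, and which Bach1 is known to repress. It rose most in V, from 24, 34, 37.5 and 23.6 CPM to 112, 99.8, 181 and 152 CPM, 4.57-fold (log2 2.19, SE 0.28, adjusted p 3.44e-09). H rose from 13, 14.4, 13.2 and 9.65 CPM to 33.5, 58.9, 54.3 and 63.1 CPM, 4.19-fold (log2 2.07, SE 0.29, adjusted p 1.87e-07). T rose from 19.2, 16.1, 19 and 16.6 CPM to 25.3, 81.9, 50.1 and 55.7 CPM (log2 1.59, SE 0.28, adjusted p 3.05e-06). No coculture library overlapped the mono-culture libraries in these 3 clones or in E, which rose from 34.2, 43.8, 46.9 and 35.1 CPM to 58.5, 65.5, 61.5 and 84.6 CPM (log2 0.76, SE 0.27, adjusted p 0.0145). The same 4 fibroblast markers summed, in the same order of replicates, to 14.6, 48.7, 59.3 and 104 CPM in the coculture libraries of V and to 30.9, 65.6, 74.2 and 96.5 CPM in those of H. They summed to 32.1, 51.6, 79.8 and 79.3 CPM in E and to 106, 51.9, 69.9 and 106 CPM in T. In H the library with the lowest sum was also the lowest in Hmox1 and that with the highest sum the highest, while in T the lowest sum stood in the library with the most Hmox1, and the part of fibroblast RNA in these rises was not tested. The call in E was lost without replicate 4 (adjusted p 0.111).

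KPC1 passed for Hmox1 (log2 0.62, SE 0.27, adjusted p 0.0678), but its mono-culture replicate 4, which was the lowest of the 4 for Hmox1 (67.5, 56, 54.4 and 28.7 CPM) and for 8 other members, decided that call. Without that library, its log2 change was 0.41 with an adjusted p of 0.287, while Gclc and Gsr in KPC1 still passed. The Hmox1 call was also lost without replicate number 3 of both cultures, at a threshold of 0.05 and with the sample sheet as a covariate. K and M did not pass. N went from 51.5, 46.6, 103 and 96.1 CPM to 43, 48.9, 60.5 and 74.5 CPM (log2 -0.39, SE 0.27, adjusted p 0.276). The mono-culture libraries of N fell into a low and a high pair, and with replicates 1 and 2 alone the log2 change was 0.20 (adjusted p 0.672). The same 2 pairs stood apart the other way in Gsta4. The responses of Hmox1 differed among the 8 lines (adjusted p 8.82e-08).

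Osgin1 (chromosome 8, 119434124 to 119446256, plus strand), an oxidative stress-induced growth inhibitor, was lowest in K, with 9.92, 9.99, 13 and 10.8 CPM in mono-culture, below the range of every other line. Within lines it was called in T, where it rose from 42.6, 41.5, 48.9 and 32.5 CPM to 57.9, 75.3, 66.1 and 35.7 CPM (log2 0.51, SE 0.21, adjusted p 0.0383), with overlap, and the call was lost without replicate 2 (adjusted p 0.242). E lay higher in all coculture libraries and was not called (log2 0.39, SE 0.21, adjusted p 0.122), but it passed without replicate 4 (adjusted p 0.0962). The test of different responses among the lines gave an adjusted p of 0.189, and of 0.0564 without replicate 3, so whether the response of Osgin1 is called depends on which libraries enter.

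Counted by line, 8 of the 10 genes were called in T, 5 in H, 4 each in E, V and M, and 3 each in K, N and KPC1. Among all 14134 genes in that fit, the share called was 62.2% in T, 44% in H, 61.3% in E, 61.5% in V, 38.9% in M, 20.5% in K, 37.4% in N and 39.2% in KPC1. The share of members called was above that of all genes in T, H, K and M and below it in E, V, N and KPC1. With only 10 members, 1 gene more or less would have put H, K, M, N or KPC1 on the other side. In these lines the share is therefore near that of all genes. The median log2 change of the 10 was between -0.27 in N and 0.07 in M. Gclc was called in all 8 lines, Txnrd1 in 6, Hmox1 and Gsta4 in 5, Gsr in 4, Nqo1 in 3, and Gclm, Srxn1 and Osgin1 in 1. The standard deviation of log2 CPM over the 8 lines was smaller in coculture for 9 of the 10 genes, Osgin1 being the exception, against 57% of all genes tested. For Gclc it went from 1.04 to 0.35 and for Gsta4 from 1.43 to 0.63, beside medians of 0.342 and 0.336 for all genes tested.

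The study's own contrast, group 1 (E, H, V) against group 2 (K, M, N, T), was tested on the summed mono-culture libraries with the clone as the replicate, 3 against 4. None of the 10 genes was called by edgeR's quasi-likelihood test, and 0% of the 14829 genes tested were. At an unadjusted p under 0.05, 766 genes passed, none of them a member, and DESeq2 called 157 genes, none of them among the 9 members to which it gave an adjusted p, with Gsta4 left without one. The clone means of the groups overlapped for every member, while 5.49% of all genes did not overlap. The largest differences were in Hmox1, with 27.5 ± 13.9 CPM (SD, n = 3) in the clones of group 1, beside 48.9 ± 30.9 CPM (SD, n = 4) in those of group 2 (log2 -0.83, SE 0.62, adjusted p 0.896), and in Nqo1, with 7.8 ± 8.77 CPM and 12.4 ± 14 CPM (log2 -0.65, SE 1.71, adjusted p 0.966). The clones of group 1 were unlike each other, and Gclc stood at 267 ± 25.4 CPM in E, at 45.9 ± 7.31 CPM in H and at 36.1 ± 5.33 CPM in V (SD, n = 4).

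A different response in group 1 and group 2 was sought in the interaction of group and culture. It was not called for any member, while 0.00689% of the 14523 genes tested, 1 gene, passed. The largest term was that of Hmox1, a log2 difference of 1.32, SE 0.52, adjusted p 0.658 in favor of group 1. In coculture, the clones of group 1 held 85.4 ± 44.6 CPM of Hmox1 (SD, n = 3) and those of group 2 57.1 ± 22.5 CPM (SD, n = 4). Gclc followed with 0.80, SE 0.50, adjusted p 0.697.

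Other genes of the pathway moved in both directions in coculture. The counts of the lists below stand beside 27.2% of all genes tested called higher and 27.4% called lower, and no list was tested as a set. Of 12 regulators of Nrf2, 2 rose, 3 fell and 7 did not pass, with a median log2 change of -0.03. Keap1, the inhibitor, fell (log2 -0.55, SE 0.11, adjusted p 0.00480), lower in 7 of 8 lines, and so did Rbx1 (log2 -0.29, SE 0.08, adjusted p 0.0125) of the ubiquitin ligase and the repressor Bach1 (log2 -0.38, SE 0.11, adjusted p 0.0175), the last lower in all 8 lines. The small Maf gene Maff (log2 0.33, SE 0.12, adjusted p 0.0430) and Cul3 (log2 0.20, SE 0.07, adjusted p 0.0434) rose.

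Of 22 genes of glutathione synthesis and use, 18 were tested, 5 rose, 8 fell and 5 did not pass, with a median of -0.01. The peroxidase Gpx7, the glutathione-degrading enzyme Chac1 (log2 1.5, SE 0.31, adjusted p 0.00438) and Ggct (log2 1.16, SE 0.27, adjusted p 0.00706) rose in all 8 lines. Gsta1 (log2 -3.51, SE 0.71, adjusted p 0.00438), Mgst2 (log2 -1.02, SE 0.20, adjusted p 0.00360) and Mgst3 (log2 -0.76, SE 0.15, adjusted p 0.00368), which conjugate glutathione, fell. Gsta1 and Gsta2 are near copies of each other, so the value of Gsta1 is uncertain. The median coculture line held only 0.370 CPM of Gsta1. Gpx7 was at 0.00730 CPM in the median mono-culture line, under the 3 counts taken as the floor, and at 0.740 CPM in coculture (adjusted p 7.73e-06), so no fold change is given. Fibroblast markers rose from such low levels in the same libraries, and their part was not tested.

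Of 14 thioredoxin and peroxiredoxin genes, 6 rose and 2 fell, with a median of 0.09. Thioredoxin, the substrate of Txnrd1, rose as Txn1 (log2 0.40, SE 0.07, adjusted p 0.00309), as did mitochondrial Txn2 (log2 0.55, SE 0.09, adjusted p 0.00232) and the endoplasmic reticulum peroxiredoxin Prdx4 (log2 0.63, SE 0.11, adjusted p 0.00287), each in all 8 lines. Mitochondrial Txnrd2 (log2 -0.45, SE 0.14, adjusted p 0.0267) and Sesn1 (log2 -0.64, SE 0.18, adjusted p 0.0169) fell. Of 10 genes listed under NADPH supply, 6 rose and 2 fell, with a median of 0.14. Taldo1 (log2 0.67, SE 0.10, adjusted p 0.00171) and G6pdx (log2 0.42, SE 0.11, adjusted p 0.0138) of the pentose phosphate pathway and Mthfd1 (log2 0.36, SE 0.07, adjusted p 0.00385) of folate metabolism rose, while Pgd (log2 -0.35, SE 0.10, adjusted p 0.0153) and Idh1 (log2 -0.55, SE 0.10, adjusted p 0.00310) fell.

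Among 10 genes of heme and iron handling, 2 rose and 3 fell (median -0.06). The transferrin receptor Tfrc (log2 0.99, SE 0.13, adjusted p 0.00118) and Hmox2 (log2 0.12, SE 0.05, adjusted p 0.0840) rose. Fech (log2 -0.57, SE 0.09, adjusted p 0.00162), which inserts iron into heme, the iron exporter Slc40a1 (log2 -1.32, SE 0.37, adjusted p 0.0173) and the biliverdin reductase Blvra (log2 -0.18, SE 0.08, adjusted p 0.0920) fell. Of 14 detoxification and export genes, 13 were tested, 3 rose and 5 fell (median -0.07), with the aldo-keto reductases Akr1b8 (log2 0.38, SE 0.07, adjusted p 0.00297) and Akr1b3 (log2 0.40, SE 0.08, adjusted p 0.00344) and the exporter Abcc1 (log2 0.24, SE 0.07, adjusted p 0.0150) higher, and Abcc3 (log2 -1.07, SE 0.16, adjusted p 0.00153), Aox1 (log2 -1.19, SE 0.25, adjusted p 0.00463) and Abcc5 (log2 -0.48, SE 0.15, adjusted p 0.0250) lower. Of 5 genes that remove superoxide and peroxide, 1 rose and 3 fell (median -0.19). Catalase, Cat (log2 -0.45, SE 0.07, adjusted p 0.00184), and the cytosolic superoxide dismutase Sod1 (log2 -0.19, SE 0.06, adjusted p 0.0241) with its copper chaperone Ccs (log2 -0.22, SE 0.07, adjusted p 0.0372) fell, and the secreted Sod3 (log2 1.85, SE 0.41, adjusted p 0.00629) rose. Sod3 was low, at a median over the lines of 0.463 CPM in mono-culture and 1.42 CPM in coculture. Its lowest mono-culture line, at 0.0441 CPM, was under the 3 counts taken as the floor, so the size of its rise is uncertain. The median of all genes tested was 0.00. No gene of these 7 lists was called between the groups in mono-culture, where none of the 14829 genes tested was.

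**Figure D5:**
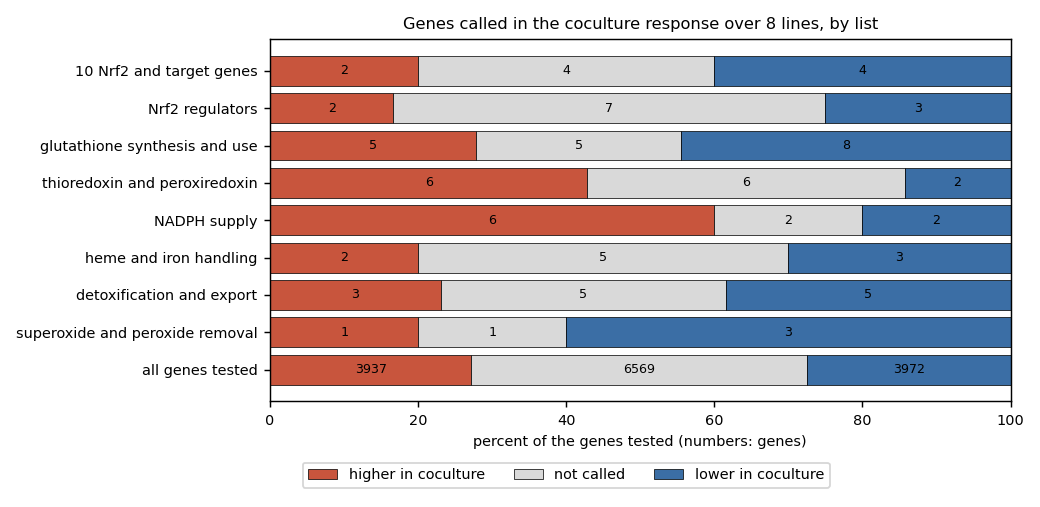
Percent of the tested genes of each list called higher (red), lower (blue) or not called (gray) in the coculture response over 8 lines, with the number of genes in each part. 6 of 10 genes of NADPH supply were higher and 3 of 5 genes of superoxide and peroxide removal were lower, and no test of a list was made.

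The gene whose log2 CPM ran closest to that of each member over the 16 means of line and culture was sought among the 14478 genes tested. It was Nell2 for Nfe2l2 (r = 0.847), Ptp4a2 for Nqo1 (r = 0.930), Cdc25a for Hmox1 (r = 0.886), Asgr1 for Gclc (r = 0.940), Myo1h for Gclm (r = 0.910), Herc4 for Txnrd1 (r = 0.939), Neto2 for Srxn1 (r = 0.893), Ptpn3 for Gsr (r = 0.919), Hsd17b14 for Gsta4 (r = 0.963) and Htatip2 for Osgin1 (r = 0.916). Second to Ptp4a2 for Nqo1 stood Slc7a11, the cystine importer of glutathione synthesis (r = 0.919). The means share lines and libraries, and each r is the highest of many.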

How the data were processed

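RNA sequencing of 8 tumor lines, 64 strand-specific, paired-end libraries of polyadenylated RNA, was read from 2 tables. The first holds whole read counts per gene as the authors deposited them, without normalization, for 39017 genes. RPKM computed by the authors fill the other, for 49585 genes. The submitters' processing notes name mm10, featureCounts and edgeR, and the aligner, the annotation and the strand setting are not given in the sources used here. No column was left unused.

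Counts were analysed with edgeR 4.0.16 in R 4.3.3, with TMM normalization, filterByExpr and quasi-likelihood tests, and a Benjamini-Hochberg adjusted p under 0.1, over all genes tested. The coculture response, the comparison of the groups and their interaction were fitted on counts summed over the 4 libraries of a line and culture, so that the line was the replicate. Differences among lines and the response within each line were fitted on libraries, as 1 model with 16 groups for the response. CPM are TMM normalized, and SE is the log2 change divided by the square root of F. Correlations of levels and standard deviations over lines used log2 of the mean CPM plus 0.5. Correlations of responses used the log2 changes that edgeR gave within each line. Library totals of at least 11178721 counts made counting error small for the members, except for Nqo1 in V, K and M. Samples were grouped by line and culture from the labels, and the clones by the study's groups. Pairs of libraries of 1 line and culture differed beyond sampling noise (chi-square over genes with 10 or more reads, divided by their number, at least 4.21), so none was a copy.

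The members were named by the rule of the list, and all were named. Of each other list, up to 3 genes per direction with the smallest p among those called in the coculture response were named, together with the gene most alike to each member. The members, lists and tests were chosen with earlier results of these data known. Positions come from GENCODE M21 on GRCm38, which held 37693 of the gene identifiers, and promoters from RefSeq on GRCm38.p6. Alternatives were DESeq2 1.42.0, RLE normalization, no filter, a threshold of 0.05, limma 3.58.1 on log2 RPKM with pseudocounts of 1 and 0.1, sample sheet A alone, the sheet as a covariate, a replicate block, and leaving out each line and each replicate number. The sheets (43 libraries on A, 21 on B) follow from the numbering of the samples in the labels, and all mono-culture libraries of K were on B. Leaving out KPC1 mono-culture replicate 4 or N mono-culture replicates 3 and 4 was added after seeing the data. The fits of the coculture response, the group comparison, the interaction and the response within E were run on simulated counts. These gave every line the same base level apart from the changes put in, unlike the lines here. The tests among lines were not covered.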

Additional observations from a re-analysis of the deposited data

Results flagged for a closer look

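The response to coculture differed among the 8 lines, by the F test of the line by culture terms, for Gclc (adjusted p 3.22e-12), Gsta4 (8.10e-08), Hmox1 (8.82e-08), Nqo1 (2.53e-06), Txnrd1 (1.03e-04) and Gsr (0.0933). Gclc changed sign between the lines, from -1.55 on the log2 scale in E to 0.57 in V, and so did Nqo1, from -1.37 in T to 2.40 in M.

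Single libraries stood apart from the other 3 of their line and culture in 4 of 176 sets of 4 tested by the gap to the nearest library over the whole range, where chance gives about 1 in 20. Osgin1 in V mono-culture replicate 3 was 59.7 CPM beside 44.2 to 45.8 CPM (gap over range 0.896). Srxn1 in V mono-culture replicate 2 was 64 CPM beside 46.7 to 48.6 CPM (0.890), and Srxn1 in T coculture replicate 2 was 90.5 CPM beside 65.2 to 67.4 CPM (0.912). The total of KPC1 coculture replicate 2, 11178721 counts, lay below the 16016171 to 16755693 of the other 3 (0.867), and in that library all 10 genes were the lowest of the 4 in CPM.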

How the results depend on the processing

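Over all alternatives, no called value of a single member changed sign. Calls of members were lost in 36 and gained in 9 of the refits within lines, lost in 6 of the coculture response, and lost in 6 and gained in 2 of the differences among lines. The 6 calls of the coculture response over the lines, 2 higher and 4 lower, stayed at 6 except at 5, without Gclc, at a threshold of 0.05, without E, M, N or T, and with limma on log2 RPKM without a filter. No member was called between the groups, or in the interaction of group and culture, under any alternative that gave it an adjusted p, which DESeq2 did not give for Gsta4 between the groups. Counts over all genes moved more. In the comparison of the groups, DESeq2 called 157 genes, against 0, the fit without a filter 1, sheet A alone 2, the coculture libraries 1, and leaving out a line or a replicate number 0 to 217, the highest without E. In the interaction, against 1, DESeq2 called 193, the fit without a filter 3, leaving out a line or a replicate number 0 to 34, the highest again without E, and a threshold of 0.05, sheet A alone and limma with either pseudocount or without a filter 0. Within lines, leaving out a replicate number called 1851 to 2558 genes in K and 3485 to 5002 in M, and 3 to 5 members in H and 1 to 2 in KPC1, where a threshold of 0.05 left 1. The cause of these moves was not tested.

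The labels share replicate numbers between mono-culture and coculture, and whether the numbers pair the libraries was read from deviations from the group means. Same-numbered libraries had an r between -0.107 and 0.440 (median 0.206), over 0.1 in 22 of 32 pairs. Of the 32 mono-culture libraries, 23 were most like their own number, more than an even choice among 4 numbers would give. Since not every pair was over 0.1, the numbers were not taken to pair all samples, although in M and N all 4 pairs were over 0.1. The main tests within lines and among lines are thus unpaired, and some of the libraries may be paired. With the replicate block, 64 libraries called 10602 genes in the coculture response, against 10787 without it, with 6 members in both. Within lines, the replicate block added Nqo1 in E, Gclm in N and Osgin1 in E (adjusted p 0.0280) and M (adjusted p 0.0700) and dropped Gsta4 in K, and Osgin1 then differed among the lines (adjusted p 0.0117).

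Depth limits Nqo1 in K and M, where a mono-culture library held at most 7 reads. The other 9 genes had over 100 reads in every library.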

Other observations

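Further genes of the lists, chosen after their values were seen, fill in the synthesis of glutathione. Gss, the second enzyme of its synthesis, fell in coculture (log2 -0.38, SE 0.14, adjusted p 0.0519), lower in 6 of 8 lines, so that Gclc, Gclm and Gss were all called lower. Slc7a11, which imports the cystine needed for it, rose (log2 0.46, SE 0.19, adjusted p 0.0681), higher in 7 of 8 lines. Chac1, which breaks glutathione down, and Ggct rose in all 8. Among the peroxidases, Gpx3 fell in all 8 lines (log2 -1.03, SE 0.23, adjusted p 0.00662), and the membrane-bound Gpx8 rose (log2 0.48, SE 0.18, adjusted p 0.0560). Gpx3 was low, at a median over the lines of 0.724 CPM in mono-culture and 0.386 CPM in coculture. Its lowest coculture line, at 0.133 CPM, was under the 3 counts taken as the floor, so the size of its fall is uncertain. Sesn2, a stress-induced partner of the thioredoxin system, rose (log2 0.74, SE 0.20, adjusted p 0.0146), higher in 7 of 8 lines, while its relative Sesn1 fell. Fibroblast markers rose in the same libraries, and their part in these values was not tested.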
